A study of Mus musculus with 8 samples.

Results

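Potassium channel genes were followed in RNA sequencing libraries from isolated mouse pancreatic islets of 2 genotypes. They were taken by name from the deposited gene tables: protein-coding genes whose symbol starts with Kcn, plus Abcc8, with at least 10 exon reads in 2 or more libraries. Of 48709 genes in the tables, 95 carried such a name and 64 met the minimum. The 64 were sorted into 6 classes: 22 voltage-gated genes (Kcna to Kcnh, with the modifier family Kcns), 10 inward rectifiers (Kcnj), 9 2-pore channels (Kcnk), 7 calcium-activated and related pore-forming genes (Kcnm, Kcnn, Kcnt and Kcnu), 5 Kcnq genes and 11 accessory subunits. One genotype was labelled β-Tead1-KO, a name for loss in β-cells of Tead1, the TEAD family transcription factor that works with YAP and TAZ. The other was labelled Flox/Flox, called Flox here. Both groups were C57BL/6 mice aged 1 year, and each had 2 libraries, run on 2 lanes each. The design text states that each library pooled 3 samples, and the promoter that drives the deletion is not given in the sources used here. Descriptions list only 1 or 2 numbers for a library, which leaves the pool size unclear. Library numbers 1 and 2 recur in both genotypes, but no label says that they mark a shared litter or day.

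Exon reads totalled 22352518 and 26387280 in β-Tead1-KO-labelled libraries, and 21938244 and 14069569 in the Flox libraries. Tead1 exon reads came to 137 and 163 CPM (counts scaled to library size by TMM) in β-Tead1-KO-labelled libraries and 101 and 124 CPM in Flox, and so showed no drop (log2 fold change 0.41, SE 0.19, edgeR adjusted p = 0.347). Gene totals cannot resolve a deleted exon, so Tead1 does not check the labels, and each direction given here rests on them. Intron reads made up 29.4% and 38.0% of gene reads in β-Tead1-KO-labelled libraries and 28.8% and 43.1% in Flox, so they differed more within a genotype than between genotypes. Bulk islet RNA does not tell fewer cells of a type from less RNA per cell.

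A potassium channel lets potassium leave the cell, which holds the membrane at a negative voltage. In the β-cell, ATP made from glucose closes the ATP-sensitive potassium channel, the membrane depolarises, calcium enters through voltage-gated calcium channels and insulin granules are released. Voltage-gated and calcium-activated potassium channels then end each action potential, and 2-pore channels carry a background leak. Many pore-forming subunits work with accessory or electrically silent subunits that set their speed and their place in the membrane.

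Of the 64 genes, 7 changed between the genotypes, 4 higher and 3 lower in β-Tead1-KO-labelled libraries. That is 10.9% of the members, where 3.36% of the 15014 genes tested passed the same test (edgeR quasi-likelihood, adjusted p below 0.05 over all genes). By direction, 1.76% of all tested genes were higher and 1.6% lower. The risers were Kcnc4, Kcns3, Kcnk2 and Kcnip4, and Kcnj12 and Kcnf1 were among those that fell. The other 57 members did not pass, among them the most abundant channel genes of the islet. At an unadjusted p below 0.05 there were 27 members, 13 higher and 14 lower, or 42.2% against 16.8% of all tested genes. The 2 libraries of one genotype lay wholly above or below the 2 of the other for 40 members, 20 in each direction, or 62.5% against 48% of all tested genes (23.9% higher and 24.2% lower). The median log2 fold change of the members was -0.11, beside -0.01 over all tested genes. DESeq2 called 15 members, 7 higher and 8 lower, where it called 7.59% of the genes it tested (3.83% higher and 3.76% lower). The edgeR count depended on single libraries: leaving out either β-Tead1-KO library gave 5 members, leaving out Flox library 1 gave 24 and leaving out Flox library 2 gave 17. The share of all tested genes called moved too. It was 0.566% and 0.431% with β-Tead1-KO library 1 or 2 left out, and 15.1% and 6.26% with Flox library 1 or 2 left out. The members' median ran from -0.16 to 0.13.

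**Figure D1:**
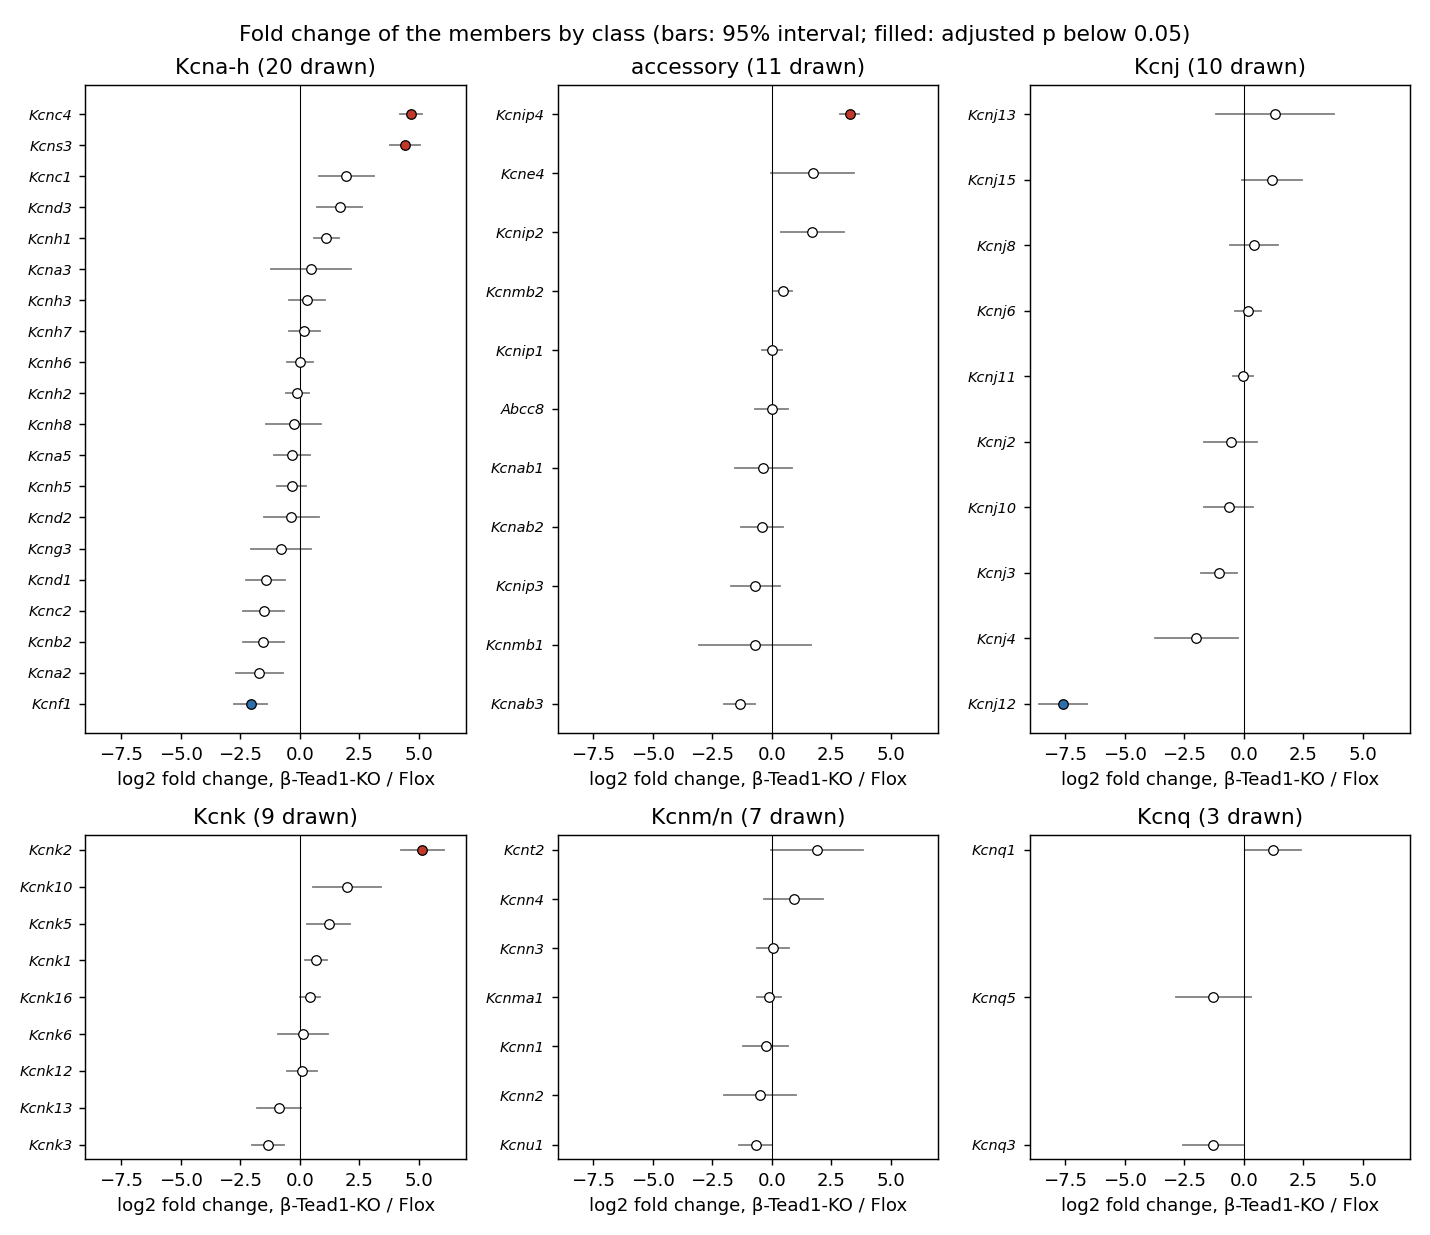
Log2 fold change (β-Tead1-KO over Flox, horizontal axis) of 60 members by class, with its 95% interval; filled points passed an edgeR adjusted p of 0.05, red higher and blue lower. The 6 filled points drawn are Kcnc4, Kcns3, Kcnk2 and Kcnip4 to the right of 0 and Kcnf1 and Kcnj12 to the left, and the fitted value of Kcnj12 rests on 1 read in each β-Tead1-KO library.

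The genes of the ATP-sensitive channel did not pass. Abcc8, the sulfonylurea receptor, was the most abundant member in both genotypes on a per-length scale (TMM-scaled exon CPM per kb of exon). Its level was 965 and 985 CPM in β-Tead1-KO-labelled libraries, against 783 and 1178 CPM in Flox. Both β-Tead1-KO values lay between the Flox values, and the log2 fold change was -0.01 with a 95% interval of -0.69 to 0.68 (edgeR adjusted p = 0.993). Kcnj11, the pore subunit Kir6.2, had 136 and 161 CPM in β-Tead1-KO-labelled libraries and 155 and 148 CPM in Flox. Its log2 fold change was -0.03, with an interval of -0.44 to 0.38 (adjusted p = 0.955). The intervals leave room for changes of less than 2-fold in either gene. Per length, Abcc8 stood above Kcnj11 by a ratio of 3.23 and 2.77 in β-Tead1-KO-labelled libraries and of 2.30 and 3.61 in Flox. These ratios overlapped between genotypes.

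**Figure D2:**
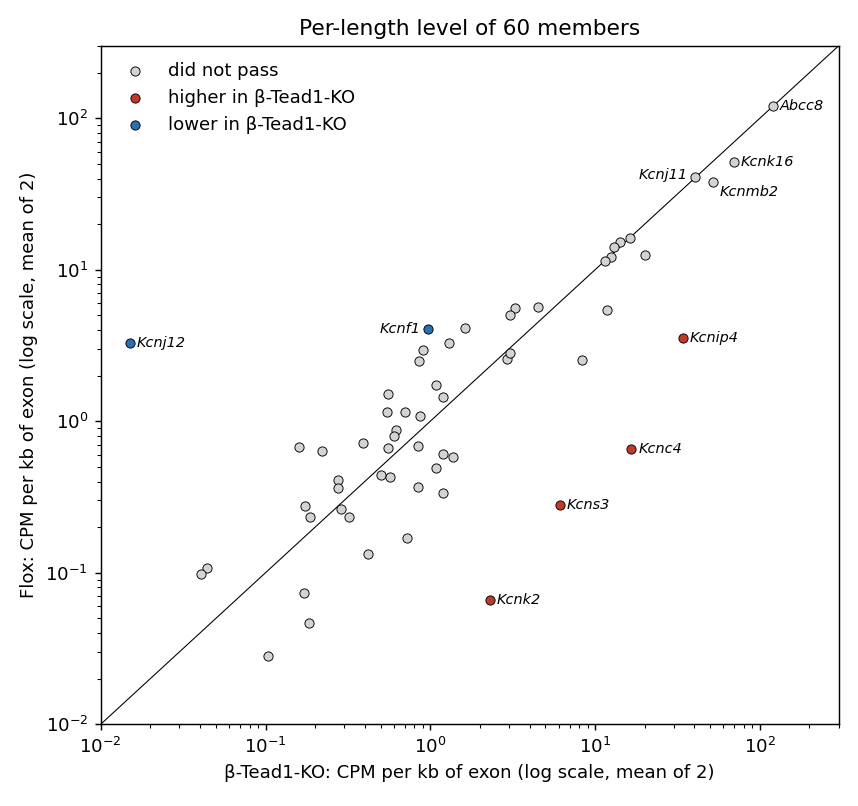
Per-length level (TMM-scaled exon CPM per kb of exon, mean of 2 libraries, log axes) of 60 members in libraries labelled β-Tead1-KO (horizontal) and Flox (vertical); the line marks equal levels. Abcc8, Kcnk16, Kcnj11 and Kcnmb2 sit near the line at the top right, and the 6 drawn genes that passed sit away from it.

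Among the voltage-gated genes 2 of 22 rose and 1 fell (median log2 fold change -0.28). Kcnc4 encodes Kv3.4, a fast-inactivating channel of the Shaw family. The gene (ENSMUSG00000027895, mm10 chromosome 3, 107438303 to 107459552, minus strand) had 58.6 and 63.3 CPM in β-Tead1-KO-labelled libraries, against 2.41 and 2.40 CPM in Flox. The groups were far apart and each pair of libraries was close. The log2 fold change was 4.66 (SE 0.19, edgeR adjusted p = 0.00192). Intron reads, a separate read class, gave 4.89 (adjusted p = 0.0104), and junction reads gave 4.57 (0.0012). On the per-length scale Kcnc4 ranked 7th among the 64 members in β-Tead1-KO-labelled libraries and 40th in Flox.

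Elsewhere in the Shaw family, Kcnc2 and Kcnc1, encoding Kv3.2 and Kv3.1, did not pass. Their log2 fold changes were -1.52 and 1.96 (adjusted p = 0.0915 and 0.101).

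Silent subunits form no channel alone and change the behaviour of the Kv2 channels they join. Kcns3 (Kv9.3; ENSMUSG00000043673, chromosome 12, 11090202 to 11150842, minus strand) had 18.1 and 19.1 CPM in β-Tead1-KO-labelled libraries, against 0.929 and 0.776 CPM in Flox. The log2 fold change was 4.43 (SE 0.25, edgeR adjusted p = 0.00236). Its junction reads numbered 19 and 21 in β-Tead1-KO-labelled libraries and 0 in each Flox library. Kcnf1 (Kv5.1; ENSMUSG00000051726, chromosome 12, 17172100 to 17176888, minus strand) did the opposite. It had 4.53 and 4.77 CPM in β-Tead1-KO-labelled libraries and 23.8 and 14.95 CPM in Flox, a log2 fold change of -2.06 (SE 0.28, adjusted p = 0.024). Per length, Kcnf1 stood to Kcns3 as 0.159 in both libraries labelled β-Tead1-KO, against 16.4 and 12.3 in Flox. The Kcnf1 call was lost without either β-Tead1-KO library (adjusted p = 0.157 in each case), whereas Kcns3 passed with any library left out.

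Kcnb2, encoding the pore subunit Kv2.2, had 8.78 and 17.3 CPM in β-Tead1-KO-labelled libraries and 32.2 and 43.4 CPM in Flox. The libraries did not overlap, and the gene passed with DESeq2 but not in the main edgeR fit. Its log2 fold change was -1.53 (edgeR adjusted p = 0.0933, DESeq2 adjusted p = 0.00107). It passed in edgeR with the library number as a replicate block (0.00494). Kcng3, another silent subunit, did not pass (log2 fold change -0.78, adjusted p = 0.525).

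Over the 4 libraries the most abundant voltage-gated genes per length were Kcnh6 and Kcnh2, the ERG channels, which help to repolarise the membrane. Kcnh6 had 46.7 and 68.2 CPM in β-Tead1-KO-labelled libraries and 54.2 and 60.9 CPM in Flox. Kcnh2 had 65.3 and 71.9 CPM in β-Tead1-KO-labelled libraries and 62.6 and 83.9 CPM in Flox. Both overlapped between genotypes, with log2 fold changes of 0.00 at 2 decimals for Kcnh6 (interval -0.55 to 0.54) and -0.10 for Kcnh2 (-0.57 to 0.38). Kcnh1, encoding the EAG channel Kv10.1, had 91.2 and 82.1 CPM in β-Tead1-KO-labelled libraries and 46.9 and 32.9 CPM in Flox. It missed the threshold in edgeR (log2 fold change 1.12, adjusted p = 0.0571) and passed with DESeq2 (adjusted p = 0.000256). It also passed in edgeR on unique reads (0.0317) and on junction reads (0.0229), with 35.4% of its exon reads mapping uniquely. In the remaining families, Kcna2 (Kv1.2), Kcnd1 (Kv4.1) and Kcnd3 (Kv4.3) had log2 fold changes of -1.70, -1.44 and 1.69 (edgeR adjusted p = 0.0966, 0.0963 and 0.0889). None of them passed in the main edgeR fit, and DESeq2 called all 3. With the library number as a replicate block, edgeR also called all 3 (adjusted p = 0.00597, 0.0191 and 0.0344). Kcnd3 passed in edgeR on lane 2 (0.0476) but not on lane 1 (0.214).

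Among the inward rectifiers 1 of 10 fell and none rose (median log2 fold change -0.29). Kcnj12 encodes Kir2.2, a strong inward rectifier that steadies the resting voltage in heart and other tissues. The gene (ENSMUSG00000042529, chromosome 11, 61022564 to 61071131, plus strand) had 1 exon read in each library labelled β-Tead1-KO, against 223 and 110 in Flox. Scaled for library size, the β-Tead1-KO to Flox ratio was 0.00438 with an exact 95% counting interval of 0.000528 to 0.0159, which covers counting error only. The edgeR adjusted p was 0.00192. Junction reads numbered 0 in each library labelled β-Tead1-KO, against 19 and 10 in Flox. Intron reads numbered 3 and 4 in β-Tead1-KO-labelled libraries, against 42 and 224 in Flox, and passed the test on their own (adjusted p = 0.00909). Kcnj12 ranked last of the 64 members by per-length level in β-Tead1-KO-labelled libraries and 20th in Flox.

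Its closest relatives were low in both genotypes. Kcnj2, the Kir2.1 gene, had 1.08 and 1.91 CPM in β-Tead1-KO-labelled libraries and 1.81 and 2.68 CPM in Flox (log2 fold change -0.56, adjusted p = 0.605). Kcnj4, the Kir2.3 gene, had 0.269 and 0.413 CPM in β-Tead1-KO-labelled libraries and 0.789 and 2.12 CPM in Flox (log2 fold change -2.00, adjusted p = 0.233, or -2.59 and 0.0341 without Flox library 1 and -1.18 and 0.657 without Flox library 2). Kcnj6, which encodes a G protein-gated channel and followed Kcnj11 in mean level over the 4 libraries, had 14.2 and 19.7 CPM in β-Tead1-KO-labelled libraries and 14.5 and 15.3 CPM in Flox (log2 fold change 0.19, adjusted p = 0.740). Its partner gene Kcnj3 had -1.06 (adjusted p = 0.154).

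Among the 2-pore channels 1 of 9 rose and no gene fell, with a median log2 fold change of 0.43. Kcnk2 encodes TREK-1, a leak channel opened by membrane stretch and lipids. The gene (ENSMUSG00000037624, chromosome 1, 189207930 to 189402273, minus strand) had 12.1 and 10.6 CPM in β-Tead1-KO-labelled libraries, against 0.232 and 0.423 CPM in Flox. In reads that was 269 and 283 in β-Tead1-KO-labelled libraries and 5 and 6 in Flox. The log2 fold change was 5.15 (SE 0.36, edgeR adjusted p = 0.00449). Intron reads gave a log2 fold change of 3.26 (adjusted p = 0.0304), and junction reads numbered 60 and 75 in β-Tead1-KO-labelled libraries and 0 and 1 in Flox.

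Kcnk16 encodes TALK-1, an islet-enriched leak channel, and was the second most abundant member per length in both genotypes. It had 64.04 and 58.4 CPM in β-Tead1-KO-labelled libraries and 50.3 and 40.7 CPM in Flox. The libraries did not overlap, but the gene missed the threshold (log2 fold change 0.43, interval -0.00 to 0.86, adjusted p = 0.302). Kcnk1, encoding TWIK-1, had 0.67 (adjusted p = 0.142), with 31.1% of its reads mapping uniquely. On unique reads its adjusted p was 0.477, with the library number as a replicate block 0.0417, and without Flox library 1 0.0182. Kcnk10, encoding the TREK-1 relative TREK-2, had 2.06 and 1.61 CPM in β-Tead1-KO-labelled libraries and 0.650 and 0.212 CPM in Flox. The log2 fold change of Kcnk10 was 1.98 (edgeR adjusted p = 0.159). It was 3.09 without Flox library 1 and 1.49 without Flox library 2. Kcnk3, the TASK-1 gene, pointed the other way at 6.18 and 4.09 CPM in β-Tead1-KO-labelled libraries and 12.4 and 13.7 CPM in Flox. The log2 fold change of Kcnk3 was -1.34 (edgeR adjusted p = 0.0643, DESeq2 adjusted p = 0.0045). Kcnk3 also passed in edgeR on unique reads (0.0478), with a filter of at least 1 CPM (0.049) and with the replicate block (0.0258).

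**Figure D3:**
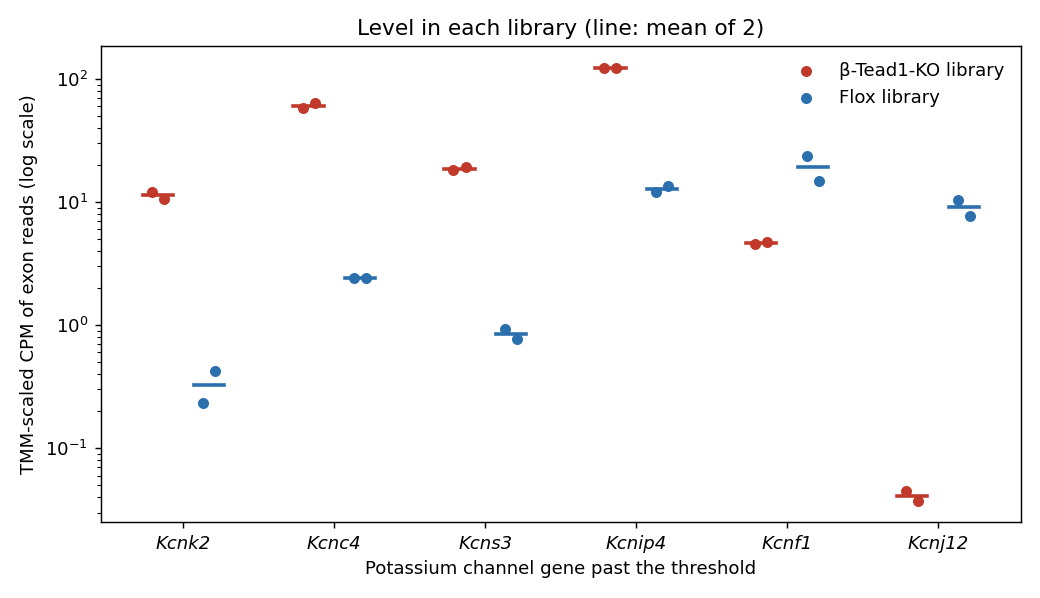
TMM-scaled exon CPM (log axis) of 6 genes that passed, in each library labelled β-Tead1-KO (red, left) and Flox (blue, right), ordered by fold change; short lines are means of 2 libraries. In each of the 6 genes both β-Tead1-KO libraries lie on the same side of both Flox libraries.

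No calcium-activated or related pore gene of the 7 passed in edgeR (0 at an unadjusted p below 0.05, 0 of 6 with DESeq2, which gave Kcnt2 no adjusted p, and 0 with limma-voom; median log2 fold change -0.12). Kcnma1, the large-conductance BK channel, had 85.6 and 94.6 CPM in β-Tead1-KO-labelled libraries and 81.8 and 114 CPM in Flox (log2 fold change -0.12, interval -0.62 to 0.39, adjusted p = 0.832). Kcnn3, encoding the small-conductance channel SK3, had 122 and 139 CPM in β-Tead1-KO-labelled libraries and 160 and 91.8 CPM in Flox. Its Flox libraries lay on either side of both others (log2 fold change 0.05, interval -0.64 to 0.74). Kcnn4, the intermediate-conductance channel gene, and Kcnt2, a sodium-activated channel gene, had log2 fold changes of 0.91 and 1.90 (adjusted p = 0.451 and 0.305). Without Flox library 1 Kcnn4 had 1.91 (adjusted p = 0.044), and without Flox library 2 it had 0.40 (0.785). Kcnt2 rested on 32 reads in β-Tead1-KO-labelled libraries and 6 in Flox.

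Genes of the Kcnq class were scarce. Kcnq1, the slow cardiac and epithelial channel gene, had 3.00 and 3.87 CPM in β-Tead1-KO-labelled libraries and 0.882 and 2.12 CPM in Flox (log2 fold change 1.24, adjusted p = 0.276, or 1.96 and 0.033 without Flox library 2 and 0.71 and 0.342 without Flox library 1). Kcnq3 and Kcnq5, neuronal M-current genes, had log2 fold changes of -1.29 and -1.28 (adjusted p = 0.291 and 0.400). With all libraries none of these 3 passed in edgeR, limma-voom or DESeq2. The libraries of the genotypes did not overlap in any of the 3, which also held for 48% of all tested genes. Kcnq5 rested on 8 and 7 reads in β-Tead1-KO-labelled libraries and 16 and 11 in Flox.

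Among 11 accessory genes 1 rose and no gene fell, with a median log2 fold change of -0.01. Kcnip4 encodes KChIP4, a calcium-binding subunit of Kv4 channels that slows their inactivation. The gene (ENSMUSG00000029088, chromosome 5, 48389502 to 49524907, minus strand) had 124 and 123 CPM in β-Tead1-KO-labelled libraries, against 12.03 and 13.5 CPM in Flox. The log2 fold change was 3.27 (SE 0.17, edgeR adjusted p = 0.00225). Unique mappings made up 41.7% of its exon reads, which leaves the level itself uncertain. Unique reads alone gave a log2 fold change of 3.30 (adjusted p = 0.00113) and junction reads 3.53 (0.000673). Intron reads numbered 13501 and 80415 in β-Tead1-KO-labelled libraries and 2352 and 17221 in Flox, and did not pass (log2 fold change 2.00, adjusted p = 0.561). Library 2 had more of them than library 1 in both genotypes. Opposite-strand genes overlap the Kcnip4 span, and whether counting used strand is not given in the sources used here.

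On total exon reads a different gene led the Kcnip family in each genotype. These shares carry the uncertainty of the Kcnip4 level given above. Kcnip4 held 61.4% and 63.4% of the Kcnip per-length sum in β-Tead1-KO-labelled libraries and 15.9% and 23.0% in Flox. Kcnip1, the KChIP1 gene, held 20.7% and 21.5% in β-Tead1-KO-labelled libraries and 61.1% and 61.5% in Flox, with an almost level count (log2 fold change 0.01, interval -0.42 to 0.45). Kcnip2, the KChIP2 gene, had 32.9 and 24.8 CPM in β-Tead1-KO-labelled libraries and 13.6 and 4.02 CPM in Flox (log2 fold change 1.70, edgeR adjusted p = 0.186, DESeq2 adjusted p = 0.0114). The Kv4 pore genes that KChIPs join summed to only 1.04 and 1.27 CPM per kb in β-Tead1-KO-labelled libraries and 1.59 and 2.15 in Flox. The Kcnip sum was 55.6 and 53.4 CPM per kb in β-Tead1-KO-labelled libraries and 20.9 and 16.3 in Flox, well above the Kv4 sum in every library. Within the Kv4 sum, Kcnd3 held 38.6% and 34.4% in β-Tead1-KO-labelled libraries and 6.10% and 7.88% in Flox, and Kcnd1 held 43.1% and 51.3% in β-Tead1-KO-labelled libraries and 75.7% and 83.8% in Flox.

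**Figure D4:**
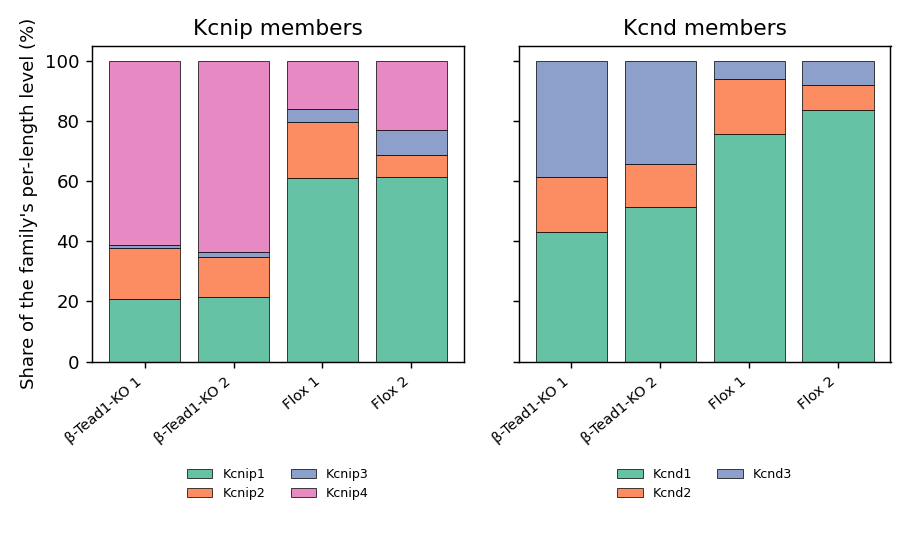
Share of the Kcnip and Kcnd families' summed per-length level (percent, stacked to 100) taken by each member gene in each of the 4 libraries, β-Tead1-KO left of Flox. Kcnip4 forms the largest Kcnip block in β-Tead1-KO-labelled libraries and Kcnip1 in Flox, while Kcnd1 leads the Kcnd family in every library.

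The other accessory genes did not pass. Kcnmb2, the inactivating β2 subunit of BK channels, had 168 and 156 CPM in β-Tead1-KO-labelled libraries and 128 and 109 CPM in Flox (log2 fold change 0.46, adjusted p = 0.244). Kcnab3, a β subunit of Kv1 channels, had 3.85 and 5.44 CPM in β-Tead1-KO-labelled libraries and 12.8 and 11 CPM in Flox (log2 fold change -1.35, edgeR adjusted p = 0.0594, DESeq2 adjusted p = 0.00439). Kcne4, a small single-pass subunit gene, did not pass (log2 fold change 1.72, adjusted p = 0.303), and 10.8% of its reads were unique. Its value rested on the Flox libraries, at 3.88 without Flox library 1 (adjusted p = 0.00224) and 1.00 without Flox library 2 (0.305). Kcnmb1 overlaps Kcnip1 on the opposite strand and had 1.01% unique reads, so its level could not be told apart from other loci.

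Promoter sequence was examined for GGAATG and its reverse complement CATTCC, the core letters that TEAD factors bind, because the comparison is on Tead1. RefSeq windows of 250 bases before each annotated start (GRCm38.p6) matched 48 of the 64 members. The letters were in at least 1 window of 11 of the 48 (22.9%), against 3880 of all 27025 genes in the table (14.4%). By window the shares were 16.2% of 68 and 12.6% of 32851. Of the 4 genes that rose, Kcns3 and Kcnk2 held the letters, each in 1 of its windows. Kcnc4 and Kcnip4 held none, nor did Kcnj12 and Kcnf1. The windows of Kcnc4, Kcnip4 and Kcnj12 lay inside the gene spans given above. Sequence before the outer start of those 3 spans was therefore not searched. A match is a description of the letters and shows no binding.

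The 2 windows with the letters are shown with the match in capitals, beside those of Kcnc4, the most abundant voltage-gated gene that rose, and Kcnj12, which fell furthest, neither of which holds a match.
Kcns3 (chr12:11150843-11151092, minus strand): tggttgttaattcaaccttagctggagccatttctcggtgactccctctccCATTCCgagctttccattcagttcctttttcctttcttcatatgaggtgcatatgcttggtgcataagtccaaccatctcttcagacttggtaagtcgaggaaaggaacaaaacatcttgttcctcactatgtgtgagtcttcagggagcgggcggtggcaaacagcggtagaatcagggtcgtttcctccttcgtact
Kcnk2 (chr1:189402274-189402523, minus strand): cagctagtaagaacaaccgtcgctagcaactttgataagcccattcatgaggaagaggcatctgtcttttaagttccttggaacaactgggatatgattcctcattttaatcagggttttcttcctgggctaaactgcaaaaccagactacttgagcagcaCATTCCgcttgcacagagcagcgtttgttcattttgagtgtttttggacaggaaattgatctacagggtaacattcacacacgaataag
Kcnc4 (chr3:107458899-107459148, minus strand): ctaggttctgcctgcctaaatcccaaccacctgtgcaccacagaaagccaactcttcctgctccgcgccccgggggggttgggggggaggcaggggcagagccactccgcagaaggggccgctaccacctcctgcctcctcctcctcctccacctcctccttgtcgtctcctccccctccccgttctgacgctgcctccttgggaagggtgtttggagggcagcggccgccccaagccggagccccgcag
Kcnj12 (chr11:61065554-61065803, plus strand): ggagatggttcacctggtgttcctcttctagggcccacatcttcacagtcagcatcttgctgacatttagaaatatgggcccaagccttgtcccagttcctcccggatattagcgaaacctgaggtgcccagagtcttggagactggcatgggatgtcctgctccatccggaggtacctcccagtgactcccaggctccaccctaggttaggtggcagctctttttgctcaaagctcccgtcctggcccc
The match begins 199 bases before the annotated start in Kcns3 and 89 bases before it in Kcnk2. The Kcnc4 window is 68.0% G and C and the Kcnk2 window 42.4%.

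Of 39 tested genes within 250000 bases of the 7 that changed, 1 passed, where 3.36% of all tested genes did.

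Proteins that work with potassium channels but carry other names were read from a separate list. Of its 20 genes 16 were tested, 1 rose and 1 fell (12.5%, beside 3.36% of all tested genes, median log2 fold change -0.03). Dpp10, which encodes an accessory subunit of Kv4 channels like the KChIPs, had 131 and 103 CPM in β-Tead1-KO-labelled libraries and 39.6 and 37.9 CPM in Flox (log2 fold change 1.59, adjusted p = 0.0153). Hcn4, a pacemaker channel permeable to sodium and potassium, had 6.14 and 7.47 CPM in β-Tead1-KO-labelled libraries and 17.7 and 25.2 CPM in Flox (log2 fold change -1.66, adjusted p = 0.0313).

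Genes of glucose entry, sodium and calcium channels and calcium stores, which act with the potassium channels in β-cell electrical activity, were read as a further list. Of 40 tested, 9 fell and none passed as higher in edgeR (22.5% called, beside 3.36% of all tested genes, with a median log2 fold change of -0.56). Those that fell included Slc2a2, Cacna1h, Cacng4, Scn3a, Scn9a, Trpm2, Trpm5 and Itpr2. The sodium channel Scn9a had 8.96 and 9.76 CPM in β-Tead1-KO-labelled libraries and 72.9 and 79.4 CPM in Flox (log2 fold change -3.02, adjusted p = 0.00233). The calcium channel Cacna1h had 1.52 and 1.16 CPM in β-Tead1-KO-labelled libraries and 5.34 and 9.45 CPM in Flox (log2 fold change -2.45, adjusted p = 0.0355).

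Markers of cell types in or around islets were read in the same libraries, and their part in the channel results was not tested. Of 6 fibroblast markers 2 rose, Col1a1 and Col1a2, and the list's sum was 117 and 88.9 CPM in β-Tead1-KO-labelled libraries and 48.1 and 28.9 CPM in Flox. Of 5 erythroid markers Hbb-bt rose, with list sums of 317 and 235 CPM in β-Tead1-KO-labelled libraries and 121 and 52.5 CPM in Flox. Of 5 δ-cell markers Sst fell, with sums of 627 and 470 CPM in β-Tead1-KO-labelled libraries and 1814 and 2075 CPM in Flox, and of 6 α-cell markers 1 fell (list sums of 8508 and 6873 CPM in β-Tead1-KO-labelled libraries and 15666 and 12445 CPM in Flox). Gcg made up most of the α-cell sums. Gc went the other way, at 420 and 418 CPM in β-Tead1-KO-labelled libraries and 170 and 55.9 CPM in Flox. Its log2 fold change was 1.89 (edgeR adjusted p = 0.126), and the other α-cell markers had negative values. None of 3 polypeptide cell markers passed in edgeR, with sums of 1198 and 680 CPM in β-Tead1-KO-labelled libraries and 2550 and 2705 CPM in Flox. Of 10 β-cell markers Slc2a2 fell, with sums of 213286 and 185851 CPM in β-Tead1-KO-labelled libraries and 220956 and 224340 CPM in Flox. Ins2, Ins1 and Iapp made up most of these sums, which say little about the other β-cell markers. Only Iapp had a positive log2 fold change (0.63), and the β-cell list's median was -0.71. Endothelial markers summed to 578 and 586 CPM in β-Tead1-KO-labelled libraries and 520 and 518 CPM in Flox, and pericyte and smooth muscle markers to 234 and 229 CPM in β-Tead1-KO-labelled libraries and 232 and 213 CPM in Flox. Macrophage markers summed to 114 and 105 CPM in β-Tead1-KO-labelled libraries and 64.5 and 77.4 CPM in Flox, and Schwann cell and neuron markers to 16.9 and 19.6 CPM in β-Tead1-KO-labelled libraries and 31.4 and 48.1 CPM in Flox. Most of the macrophage sum was C1qa, at 84.3 and 78.3 CPM in β-Tead1-KO-labelled libraries and 38.3 and 49.3 CPM in Flox. The macrophage list's median log2 fold change was 0.14. In the Schwann cell and neuron list, Th had 5.38 and 8.71 CPM in β-Tead1-KO-labelled libraries and 15.9 and 35.1 CPM in Flox. No marker of the endothelial, pericyte and smooth muscle, macrophage, Schwann cell and neuron, ductal, acinar and lymphocyte lists passed. No cell type marker was at 0 reads in all 4 libraries. Acinar sums were 605 and 4747 CPM in β-Tead1-KO-labelled libraries and 1156 and 4279 CPM in Flox, high in library 2 of both genotypes. Lymphocyte sums were 19.0 and 1.69 CPM in β-Tead1-KO-labelled libraries and 22.4 and 6.84 CPM in Flox, higher in library 1 of both genotypes.

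Near the read minimum, Kcna3 was kept with 9 and 22 reads in β-Tead1-KO-labelled libraries and 10 and 6 in Flox. Kcna4 was left out with 2 and 6 reads in β-Tead1-KO-labelled libraries and 9 and 8 in Flox. All 64 members passed the separate filter for the test.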

How the data were processed

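Each sample is 1 lane of a library. Whole-number counts of exon, junction, intron and unique reads for each gene were deposited by the authors, per the file headers. TPM and RPKM, also deposited by the authors, stand beside them. TPM and RPKM were not used. Positions are on mm10, which the submitters' processing notes name. Aligner, annotation release and strand use: not given in the sources used here. Total exon read counts of both lanes were summed per library, filtered with filterByExpr (minimum count 10, minimum total 15) and TMM-scaled. All 15014 remaining genes were tested with the quasi-likelihood method of edgeR 4.0.16 (R 4.3.3, legacy mode off, 2-sided, Benjamini-Hochberg, threshold 0.05). Log2 fold changes are β-Tead1-KO over Flox, and SEs come from the fold change and F statistic. The biological coefficient of variation was 24.3%. The code was tested on simulated data. DESeq2 1.42.0 and limma 3.58.1 (voom) were alternatives, with other filters, scaling, read classes, lanes, a replicate block and each library left out.

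With 2 libraries per genotype, p-values measure only the spread between these libraries, and nothing says that library numbers pair them. Members and lists were chosen with earlier results of these data known. Named by rule were Kcnj11, Abcc8, Kcnk16, Kcnma1, Kcnh6, Kcnq1, members past the threshold, and in each class the 2 most abundant per length and the 2 with the largest fold change. Other members named complete a family or were called by another tool, and were chosen after their values were seen. Some genes are not reported here by name or drawn, though they stay in the counts. Of 143 list entries 142 matched a gene.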

Additional observations from a re-analysis of the deposited data

How the results depend on the processing

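Kcnc4, Kcns3, Kcnk2 and Kcnj12 passed under each of 16 alternatives, and Kcnip4 under all but intron reads. Kcnf1 passed under 12 of the 14 that could test it. With a library left out, 5 to 24 members passed, 4 to 11 higher and 1 to 13 lower, the members' median log2 fold change ran from -0.16 to 0.13, and 4 to 6 classes held a call. The most came without Flox library 1 (24, with 15.1% of all genes called) and Flox library 2 (17, with 6.26%), and the fewest without β-Tead1-KO library 1 (5, with 0.566%) or 2 (5, with 0.431%), each fitted on the spread left in the other genotype, with the lone library taken to vary alike. DESeq2 called 15 (7 higher, 8 lower). The library number as a replicate block called 16 (8 higher, 8 lower), with 7.71% of all genes called; deviations of same-numbered libraries correlated at 0.392, but 2 numbers cannot show a pairing. Intron reads called 4 (1 lower) in 3 classes, with 0.748% of all genes called. A CPM of at least 1 and unique reads each gave 5 lower of 10 called, with 4.86% and 4.81% of all genes called. The cause was not tested. Of genes named by rule that did not pass, Kcnj4, Kcnk1, Kcnk10, Kcnn4 and Kcne4 crossed the threshold without Flox library 1. Their log2 fold changes there were -2.59, 0.85, 3.09, 1.91 and 3.88. Kcnq1 crossed it without Flox library 2 (log2 fold change 1.96). With the replicate block, Kcnk1 passed in edgeR (adjusted p = 0.0417). Genes named outside the rule that passed with the block included Kcnh1 (0.00746), Kcnb2 (0.00494), Kcna2 (0.00597), Kcnd1 (0.0191), Kcnk3 (0.0258) and Kcnd3 (0.0344). Genes near no change turned sign. With a library left out, log2 fold changes ran from -0.26 to 0.32 for Abcc8, -0.28 to 0.13 for Kcnh2, -0.28 to 0.27 for Kcnh6, -0.14 to 0.12 for Kcnj11, -0.054 to 0.43 for Kcnj6, -0.33 to 0.14 for Kcnma1 and -0.30 to 0.52 for Kcnn3. Without a filter they were 0.019 for Kcnj11, 0.042 for Abcc8 and 0.046 for Kcnh6. Abcc8 had 0.011 with limma-voom, 0.0088 on junction reads, 0.25 on intron reads and 0.022 with the replicate block. Intron reads gave 0.40 for Kcnma1, 0.26 for Kcnh2 and -0.40 for Kcnn3. Kcnh6 had 0.0014 with DESeq2, 0.00078 with RLE factors and 0.054 on lane 2. Kcnn3 had -0.026 on junction reads and -0.00069 on lane 1.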

Other observations

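The 31 potassium channel genes below the read minimum held 215 exon reads over the 4 libraries, at most 11 in any of them, and 7 had none. Among them Kcne3, an accessory subunit gene, had 6 and 6 reads in β-Tead1-KO-labelled libraries and 1 and 1 in Flox. The antisense gene Kcnab3os had 4 and 3 reads in β-Tead1-KO-labelled libraries and 8 and 2 in Flox. Rest, a transcriptional repressor that silences many neuronal genes, was chosen here after its value was seen, with 18.3 and 23.6 CPM in β-Tead1-KO-labelled libraries and 4.46 and 3.60 CPM in Flox (log2 fold change 2.37, SE 0.24, edgeR adjusted p = 0.0111).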
